A study of Mus musculus with 12 samples.

Results

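Gene expression in the mouse aorta was compared between day 14 and day 7 after infusion of porcine pancreatic elastase (PPE). The comparison used the 8 libraries labelled PPE week 1 (n = 4) and PPE week 2 (n = 4), of 12 libraries in all, chosen by those labels and not by any measured value. All mice were male C57BL/6J of 10 weeks. In both PPE groups the enzyme was infused below the renal arteries, into the infrarenal segment, with the aorta taken 7 days later in PPE week 1 and 14 days later in PPE week 2. The remaining 4 libraries came from mice infused with saline and harvested at day 7. No saline group was harvested at day 14, so time after surgery and the course after elastase cannot be told apart in this comparison. The labels list 4 mice per group and 1 library each, so that a replicate number names a mouse of its own group and pairs no mice between groups.

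Elastase digests elastin, the protein of the elastic layers of the arterial wall, and its infusion makes the aorta dilate, which is why it is used as a model of abdominal aortic aneurysm. The medial layer of a healthy aorta consists mainly of smooth muscle cells, each wrapped in a basement membrane and tied to elastic layers through integrins. After injury these cells can lose contractile proteins, while blood-borne leukocytes enter the wall, fibroblasts become active and cells divide. The comparison of the later with the earlier day asks which of these gene groups rose again and which fell after the first week.

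The total count of the 8 PPE libraries lay between 8526345 and 11784269. A single accession, NR_046233, the ribosomal RNA precursor, made up 21.0 to 34.6% of it at PPE week 1 and 19.5 to 22.1% at PPE week 2. The means were 30.4% ± 6.34 and 20.4% ± 1.13 (SD, n = 4 each), a difference of -9.93 percentage points (two-sided exact permutation p = 0.0571, where 0.0286 is the smallest that 4 against 4 allows). The number of accessions with a count was 15619 ± 511 at PPE week 1 and 14347 ± 561 at PPE week 2 (exact permutation p = 0.0286). Of the smooth muscle contractile list, 27 of 28 genes were expressed enough to be tested. This does not test the aorta label, since other tissues hold smooth muscle as well. The PPE week 2 libraries were less alike (mean Pearson r of log2 CPM across features 0.854) than those of PPE week 1 (0.935). Features are not independent replicates, and these correlations only describe the libraries.

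The 4 PPE week 2 libraries stood apart in their immune genes. A list score is the mean over the tested genes of a list of log2 CPM (counts per 1000000 counts of a library, scaled by TMM), after subtracting each gene's mean over 12 libraries. For the macrophage and monocyte list it was 0.82, 1.06, 0.77 and 0.74 in PPE week 1 replicates 1 to 4 and -1.15, 0.24, -1.24 and 0.34 in PPE week 2 replicates 1 to 4, against -0.52 to -0.21 in saline. Replicates 1 and 3 of PPE week 2 thus lay below every saline library, and replicates 2 and 4 lay between saline and PPE week 1. The interferon response list gave -1.43, 0.70, -1.23 and 0.61 in the same 4 libraries, against 0.83 to 1.66 at PPE week 1 and -1.19 to -0.11 in saline. Replicate 3 had the highest score of the contractile list as well, at 1.16. Results that rest on single libraries are therefore given with their values without them.

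A total of 12756 features, which are RefSeq accessions of 12273 genes, passed the filter on low counts and were tested with edgeR. At an adjusted p under 0.05, 481 features rose from PPE week 1 to PPE week 2 (3.77% of those tested) and 360 fell (2.82%), which together are 6.59%. With an unadjusted p below 0.05 in edgeR, 1354 of the 12756 features were higher and 1259 lower. The counts of listed genes at an unadjusted p, given below, are to be read beside these. Of the risen features 309, and of the fallen 168, changed at least 2-fold. All 4 PPE week 2 libraries lay above all 4 PPE week 1 libraries in 7.24% of features and below them in 8.68%. The median log2 fold change over all features was 0.02. With scaling by library size only it was 0.23, and 682 features were then called higher and 75 lower, so that the balance of the directions depends on TMM scaling. Under that scaling the lower calls were 1 of 22 macrophage, 1 of 28 interferon response, 2 of 16 activated fibroblast, 2 of 26 cell cycle and 4 of 31 ribosomal protein genes. Without PPE week 1 replicates 1 to 4 in turn, 242, 207, 295 and 315 features were called higher and 145, 112, 202 and 188 lower. Without PPE week 2 replicate 3 the counts were 222 and 160. Without PPE week 2 replicate 1 the number lower was 233, and without replicate 4 it was 607. Of the 481 risen features, 196 (40.7%) had a PPE week 2 mean within the range of the 4 saline libraries, 231 (48.0%) above it and 54 (11.2%) below it. Of the 360 fallen features, 137 (38.1%) ended within the saline range, 201 (55.8%) below it and 22 (6.11%) above it. Over all tested features, 60.5% had their PPE week 2 mean within the saline range, 24.2% above it and 15.3% below it. The risen and fallen features were called partly by their PPE week 2 values, so their shares above or below saline are not independent of the call. PPE week 1 and PPE week 2 differed from saline at 7.89 and 2.65% of features. These comparisons share libraries with the present one, so their values are only set beside it.

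The share of NR_046233 moved with the groups. With that share as a covariate, 54 features were called higher and 15 lower, and of the 116 called genes named by rule 18 kept their call. These were Tpm1, Mylk, Synpo2, Lims2, Itga7, Ltbp3, Lama5, Lamb2, Hspg2, Cytl1, Abca8a and Slc25a34 among those that rose, and Adam12, Cthrc1, Mmp14, Hmox1, Has2 and Rps6 among those that fell. The calls of the other 98 named genes ended under the covariate, with no reversal of direction. With NR_046233 left out of the library sizes instead, 481 features were called higher and 359 lower, and all 116 named calls held. TMM scaling was used in that fit too. Beyond these 2 fits, the part of that share in the results was not tested. Of the 116 named calls, 40 ended in a fit of the 8 PPE libraries alone, 17 with replicate number as a block and 20 with no filter on low counts. Lost calls given gene by gene below leave out these fits and the covariate, unless they are named.

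**Figure D1:**
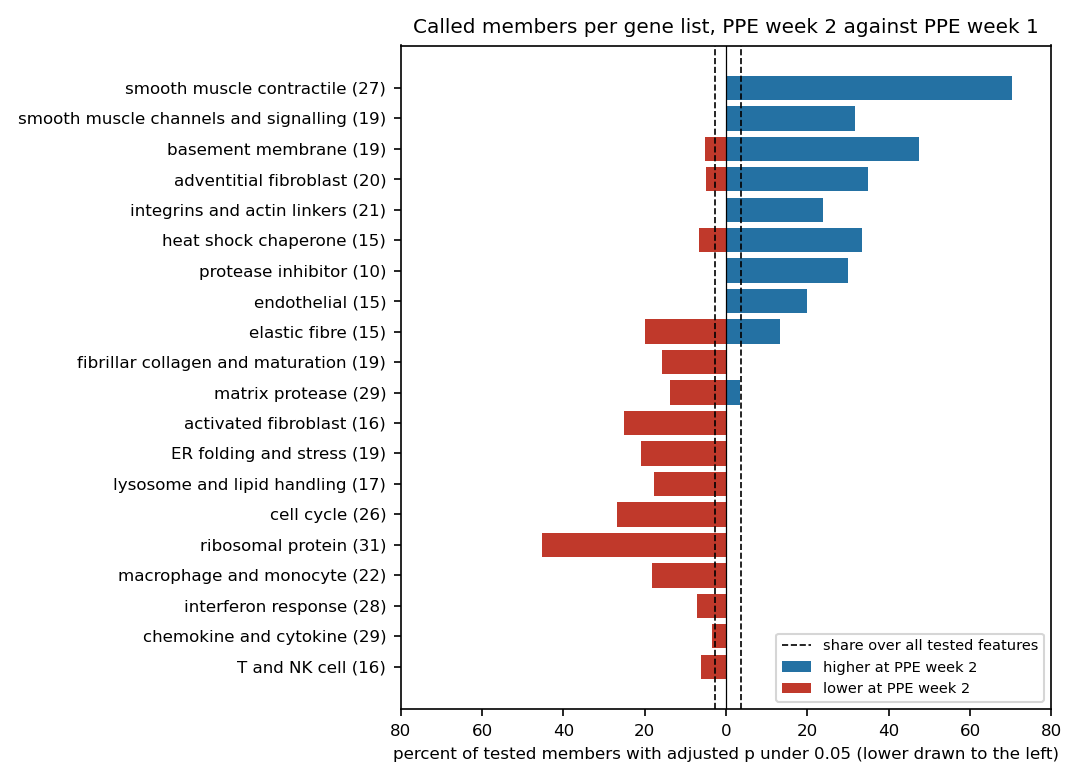
Percent of the tested genes of 20 lists with an adjusted p under 0.05 (horizontal axis), higher at PPE week 2 to the right in blue and lower to the left in red, with the number tested in parentheses after each list name and the share over all tested features as dashed lines (3.77% higher, 2.82% lower). The contractile list reaches 70.4% higher and the ribosomal protein list 45.2% lower.

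Most genes of the smooth muscle contractile apparatus rose between the 2 days. Acta2, smooth muscle actin, stood at 1259, 1167, 1497 and 2065 CPM in PPE week 1 replicates 1 to 4 and at 3575, 3944, 6998 and 3156 CPM in PPE week 2 replicates 1 to 4. Every PPE week 2 library was above every PPE week 1 library, and replicate 3 was the highest. The group means were 1497 ± 403 and 4418 ± 1749 CPM (SD, n = 4 each), a 2.95-fold rise (log2 fold change 1.56 ± 0.25 SE, adjusted p = 0.00431; NM_007392, chromosome 19, 34240336 to 34255585, mm10), beside 3569 ± 512 CPM in saline. Of the 27 tested contractile genes, 19 rose and 0 fell by edgeR, against 22 and 0 with an unadjusted p below 0.05, and DESeq2 called 21 and 0 and limma-voom 19 and 0. The median log2 fold change was 1.34, against 0.02 over all features. Leaving out any single PPE library left 16 to 20 called. With the NR_046233 covariate 3 were called at a median of 1.41. In bulk tissue, more smooth muscle cells and more RNA of these genes per cell cannot be told apart. The summed level of 22 macrophage and monocyte genes was 6982 to 8725 CPM at PPE week 1 and 2106 to 5408 CPM at PPE week 2, and the part of such cells in the contractile result was not tested.

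Tpm1, a tropomyosin that lies along actin filaments, had the smallest adjusted p of the list. Its accession NM_001164249 was at 7.62, 5.86, 6.66 and 11.1 CPM in the PPE week 1 replicates and 46.7, 37.3, 77.1 and 35.7 CPM in the PPE week 2 replicates, 6.30-fold higher (2.66 ± 0.33 SE, adjusted p = 0.000650). Each PPE week 2 value exceeded the saline mean of 18.0 ± 5.86 CPM and each saline library. Mylk, the kinase that starts contraction by phosphorylating myosin, went from 309, 288, 403 and 474 CPM to 839, 846, 1194 and 685 CPM (1.27 ± 0.17 SE, adjusted p = 0.00104). Those 4 later values surround the saline level of 807 ± 58.2 CPM. Myh11, the myosin heavy chain of smooth muscle, was at 1.10, 1.88, 2.99 and 4.19 CPM and then at 15.6, 17.7, 22.1 and 6.33 CPM (2.59 ± 0.51 SE, adjusted p = 0.00620). Reads shared between isoforms appear to be left out of the deposited counts, so the levels of Tpm1, Myh11 and Dmd are those of the part unique to 1 accession. The same may hold for other genes given here, whether called or not, and their levels may not be those of the whole gene.

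Cnn1, the actin-binding calponin, rose from 66.0 ± 23.0 to 258 ± 110.4 CPM (1.97 ± 0.31, adjusted p = 0.00321), beside 238 ± 20.8 in saline. The regulatory myosin light chain Myl9 rose from 182 ± 49.1 to 563 ± 218 CPM (1.63 ± 0.25) and the actin-bundling Synpo2 from 67.0 ± 23.4 to 299 ± 95.5 CPM (2.15 ± 0.28). Itga8, the integrin alpha subunit of smooth muscle, was at 153, 147, 204 and 349 CPM and then at 896, 811, 1404 and 609 CPM, 4.36-fold higher (2.12 ± 0.31 SE, adjusted p = 0.00301; NM_001001309, chromosome 2, 12106632 to 12301985). Although the weeks did not overlap, 3 of the 4 later libraries remained below the lowest saline library, at 1246 CPM. Contractile genes thus differed in where they stood beside saline at day 14: the mean of Itga8 was 68.1% of the saline mean, that of Cnn1 109% and that of Tpm1 274%.

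A CArG box is the motif bound by serum response factor, which together with myocardin drives contractile genes. In the 250 bases before the transcription start, RefSeq's promoter table (GRCm38.p6) held an entry for 23 of the 27 tested genes, and 4 of these (17.4%: Dmd, Myl6, Myl9 and Vcl) held a CArG box, against 482 of all 32851 promoter entries (1.47%). A gene counted if any of its entries held the box, while the second share is over single entries, so these shares differ in unit. The motif reads the same on both strands. The windows of Myl9 and of Vcl, which encodes vinculin and rose as well (0.68 ± 0.16, adjusted p = 0.0204), are shown 5′ to 3′ in the direction of transcription because they belong to called genes of the list, with the CArG box in capitals. The Myl9 window is chr2:156775214-156775463 on the plus strand, and its box begins 161 bases before the start. That of Vcl is chr14:20929148-20929397 on the plus strand, with the box 227 bases before the start.
Myl9: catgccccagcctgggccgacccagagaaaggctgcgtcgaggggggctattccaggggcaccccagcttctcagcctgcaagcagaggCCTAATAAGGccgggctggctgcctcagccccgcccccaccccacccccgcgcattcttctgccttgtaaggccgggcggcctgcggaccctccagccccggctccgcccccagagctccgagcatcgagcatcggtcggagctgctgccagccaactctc
Vcl: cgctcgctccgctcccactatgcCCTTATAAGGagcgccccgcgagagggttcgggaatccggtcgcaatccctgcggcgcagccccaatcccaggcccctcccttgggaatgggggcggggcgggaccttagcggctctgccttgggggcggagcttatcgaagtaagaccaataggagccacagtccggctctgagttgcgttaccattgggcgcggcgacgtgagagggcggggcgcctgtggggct
A match describes these letters only, and no binding was measured here.

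**Figure D2:**
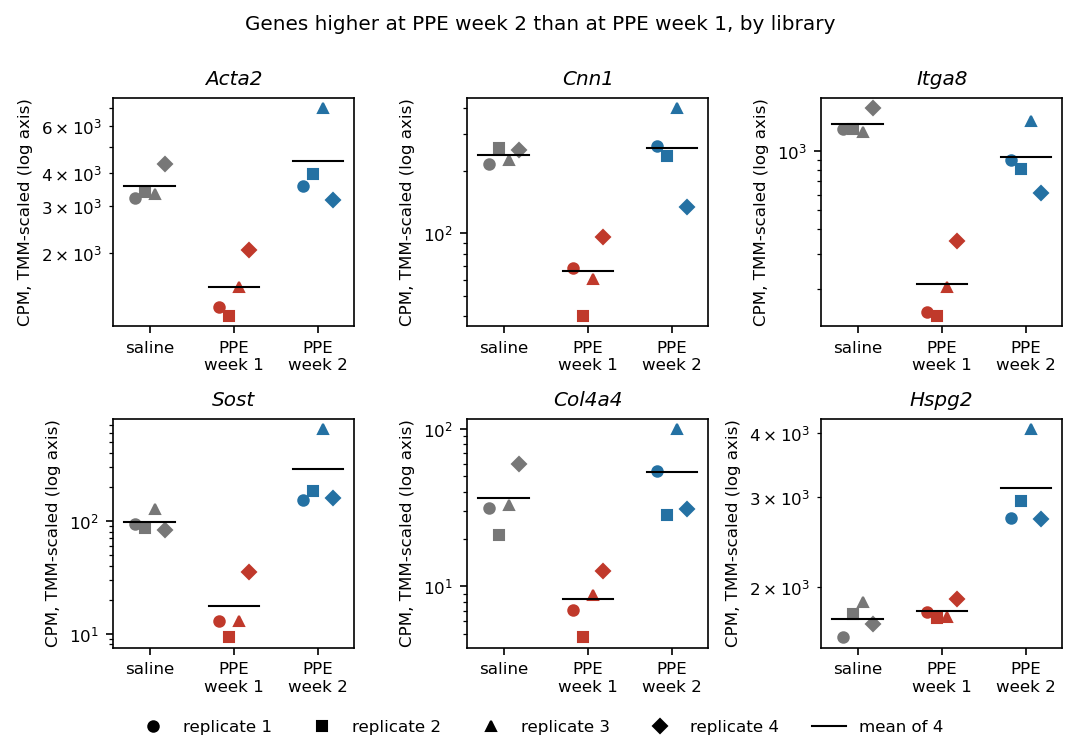
TMM-scaled CPM of 6 genes (vertical log axes) in each of the 12 libraries, with saline in gray, PPE week 1 in red and PPE week 2 in blue, replicate numbers by symbol and a bar at the mean of 4. In all 6 panels each PPE week 2 library lies above each PPE week 1 library, and replicate 3 is the highest of PPE week 2.

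Regulators of smooth muscle tone followed in part. Rgs5, which dampens G-protein signalling in vascular mural cells, was at 669, 502, 760.1 and 1009 CPM in PPE week 1 replicates 1 to 4 and 2281, 2448, 4591 and 1734 CPM in PPE week 2 replicates 1 to 4 (1.91 ± 0.30 SE, adjusted p = 0.00427), beside 3531 ± 577 CPM in saline. The weeks did not overlap. In the smooth muscle channels and signalling list edgeR called 6 higher and 0 lower of 19 tested (10 and 1 with an unadjusted p below 0.05), DESeq2 9 and 0 and limma-voom 7 and 0. The median was 0.95, and 3 genes were called without PPE week 1 replicate 2 or without PPE week 2 replicate 3. Among those called were Gucy1a1, a subunit of the nitric oxide receptor (1.35 ± 0.22), and Kcnmb1, the beta subunit of the calcium-activated potassium channel (1.77 ± 0.35).

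Transcription factors of smooth muscle were mostly not called. Of 19 tested, edgeR called 1 higher and 0 lower, against 8 and 0 with an unadjusted p below 0.05, and DESeq2 called 3 and 0 and limma-voom 1 and 0. Their median was 0.66, and the fold change of all 19 was above 0. The 1 called by edgeR is 5.26% of them, near the 3.77% higher over all features. The called gene was Heyl, a target of Notch signalling, which rose from 38.9 ± 15.5 to 107 ± 43.7 CPM (1.46 ± 0.31 SE, adjusted p = 0.0149), with an adjusted p of 0.0566 without PPE week 1 replicate 1. Myocd, which encodes myocardin, was at 0, 1.99, 0.449 and 3.19 CPM and then 2.61, 5.37, 8.41 and 4.10 CPM (1.87 ± 0.84 SE, adjusted p = 0.215), with overlapping weeks. Klf4, a factor tied to loss of the contractile state, had a log2 fold change of 0.47 ± 0.21 SE, adjusted p = 0.226.

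Integrins and linkers of actin to the membrane had 5 of 21 members called higher and 0 lower by edgeR (7 and 0 with an unadjusted p below 0.05, 5 and 0 in DESeq2, 4 and 0 in limma-voom; median 0.36). Leaving out replicate 1, 2 or 3 of PPE week 1 or replicate 3 of PPE week 2 left 3. Lims2, a partner of integrin-linked kinase, was at 8.54, 10.1, 12.4 and 17.0 CPM at PPE week 1 and 68.6, 56.6, 102 and 40.2 CPM at PPE week 2 (2.48 ± 0.29 SE, adjusted p = 0.000650). All 4 later values were above the saline range, whose highest value was 38.7 CPM. Itga7, a laminin-binding integrin subunit of muscle, rose from 43.4 ± 8.40 to 121 ± 39.6 CPM (1.48 ± 0.22 SE, adjusted p = 0.00122), and the membrane linker Svil from 251 ± 6.06 to 382 ± 68.9 CPM (0.61 ± 0.13 SE, adjusted p = 0.00897). Svil lay between 245 and 259 CPM in all PPE week 1 libraries and between 315 and 477 CPM at PPE week 2.

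Small heat shock proteins, which in smooth muscle bind and protect the cytoskeleton, rose, while the list of heat shock chaperones that holds them moved in both directions. EdgeR called 5 of its 15 genes higher and 1 lower, at a median of 0.25. Those higher were Hspb1, Hspb6, Hspb7 and Hspb8, with log2 fold changes of 1.21 ± 0.29, 1.26 ± 0.24, 1.37 ± 0.31 and 1.04 ± 0.24, and Hspa1b, which is uncertain because of its near-identical copy. The constitutive chaperone Hspa8 fell (-0.56 ± 0.16 SE, adjusted p = 0.0421). Hspb6 rose from 8.90, 10.8, 11.8 and 12.1 CPM to 25.6, 20.5, 29.4 and 28.7 CPM (adjusted p = 0.00598), with no overlap between the weeks. The number called higher was 1 without PPE week 1 replicate 1 or 2, 3 without PPE week 1 replicate 3 or 4 and 2 without PPE week 2 replicate 3. The calls of Hspb1, Hspb7 and Hspb8 ended in some or all of the fits that left out, singly, the 4 PPE week 1 libraries and replicate 3 of PPE week 2 (adjusted p = 0.0547 to 0.0979). Hspa8, the gene called lower, was not called without any 1 PPE week 1 library or without PPE week 2 replicate 3 or 4, or with scaling by library size only.

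Basement membrane genes rose in 9 of 19 cases, some of them beyond the saline level. Hspg2, which encodes perlecan, the large heparan sulfate proteoglycan of basement membranes, was at 1787, 1745, 1751 and 1902 CPM in the PPE week 1 replicates and 2735, 2947, 4066 and 2722 CPM in the PPE week 2 replicates. The earlier values lay within or just above the saline range of 1599 to 1869 CPM, and every later value was above both. The rise was 1.74-fold (0.80 ± 0.12 SE, adjusted p = 0.00122; NM_008305, chromosome 4, 137468751 to 137570630). Of 19 tested genes of the list, edgeR called 9 higher and 1 lower, against 11 and 1 with an unadjusted p below 0.05, and DESeq2 called 11 and 1 and limma-voom 10 and 1, with a median of 0.92. Leaving out single PPE libraries left 7 to 11 higher and 0 or 1 lower.

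Laminins, the cross-shaped proteins that give a basement membrane its first scaffold, moved in different directions by chain. Lama5 went from 143, 151, 180.1 and 223 CPM to 312, 412, 489.5 and 361 CPM (1.18 ± 0.16 SE, adjusted p = 0.00104), and its 4 later values all exceeded the highest saline value, 270.0 CPM. Lamb2 rose from 243 ± 52.0 to 618 ± 186 CPM (1.35 ± 0.19 SE, adjusted p = 0.00112) and Lamc3 from 4.66 ± 3.92 to 43.1 ± 25.2 CPM (3.20 ± 0.56 SE, adjusted p = 0.00531). Lama3 rose too (1.51 ± 0.35), whereas Lamb1 fell from 351 ± 25.4 to 253 ± 18.7 CPM (-0.47 ± 0.12 SE, adjusted p = 0.0286). Both beta chains had non-overlapping weeks. No gene of the list was called lower by edgeR without replicate 1, 2 or 4 of PPE week 1 or replicate 2 of PPE week 2, or with scaling by library size only.

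Collagen IV chains, which form the network of the basement membrane, were called for Col4a3 (2.56 ± 0.54), Col4a4 (2.68 ± 0.45) and Col4a6 (1.81 ± 0.32). Col4a4 was at 7.07, 4.76, 8.83 and 12.5 CPM and later at 53.9, 28.6, 99.8 and 30.8 CPM (adjusted p = 0.00369), beside 36.4 ± 16.7 in saline. Col4a2 had a log2 fold change of 0.47 ± 0.14 SE, adjusted p = 0.0579, and Col4a1 was not tested. Col18a1, the precursor of endostatin, rose from 9.74 ± 2.59 to 30.0 ± 8.64 CPM (1.63 ± 0.30 SE, adjusted p = 0.00453). Agrn, a second heparan sulfate proteoglycan, was at 211 ± 18.4 and 223 ± 9.56 CPM (0.08 ± 0.11 SE, adjusted p = 0.775).

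Elastic fibre genes went both ways, with 2 of 15 called higher and 3 lower and a median of -0.08. Eln, elastin itself, was at 3886, 3234, 3964 and 5056 CPM at PPE week 1 and 4088, 8377, 15214 and 8258 CPM at PPE week 2. Replicate 1 lay inside the earlier range and replicate 3 was the highest, and the difference did not pass the test (1.15 ± 0.35 SE, adjusted p = 0.0828). Ltbp3, which binds latent TGF-beta in the matrix, rose from 224, 196, 213 and 185 CPM to 369.5, 388, 463 and 345 CPM (0.93 ± 0.13 SE, adjusted p = 0.00109), and Fbln5, needed for elastic fibre assembly, rose from 252 ± 54.9 to 543 ± 233 CPM (1.10 ± 0.28 SE, adjusted p = 0.0361). Fbn1, the main microfibril protein, fell from 2362, 2152, 2367 and 2236 CPM to 1186, 1454, 1474 and 1595 CPM (-0.67 ± 0.11 SE, adjusted p = 0.00172), although this call was lost with scaling by library size only (adjusted p = 0.0692). Its later values were all below the lowest saline library, at 1954 CPM. The related Fbn2 (-1.29 ± 0.33 SE, adjusted p = 0.0356) and the microfibril-associated Emilin2 (-1.25 ± 0.29 SE, adjusted p = 0.0214) fell as well. The call of Fbn2 ended without replicate 1 of saline, any 1 PPE week 1 library or replicate 1, 2 or 3 of PPE week 2, and with scaling by library size only (adjusted p = 0.0523 to 0.109). That of Emilin2 ended without replicate 2 of PPE week 1 or replicate 3 of PPE week 2, and in the 8 PPE libraries alone (adjusted p = 0.0580 to 0.0776). The number of elastic fibre genes called lower was 1 without replicate 2 of PPE week 1 or replicate 3 of PPE week 2. The number called higher was 1 when replicate 1, 2 or 4 of PPE week 1 or replicate 2 or 3 of PPE week 2 was left out.

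The main fibrillar collagens did not pass the test. Col1a1 was at 29994 ± 3388 and 24208 ± 5234 CPM (-0.31 ± 0.14 SE, adjusted p = 0.214) and Col3a1 at 25995 ± 3450.2 and 20384 ± 3376 CPM (-0.35 ± 0.13 SE, adjusted p = 0.126), with overlapping weeks for both. Of 19 genes for fibrillar collagens and their maturation, 0 were called higher and 3 lower by edgeR (0 and 7 with an unadjusted p below 0.05, 0 and 4 in DESeq2, 0 and 5 in limma-voom; median -0.29). Those lower were Col5a2 (-0.53 ± 0.12), which joins mixed fibrils and narrows them, Col11a1 and the lysyl hydroxylase Plod3. Without PPE week 1 replicate 1 0 were called lower, and without replicate 2 or 4 of PPE week 1 the number was 1. The call of Col5a2 ended without replicate 1 of PPE week 1, and with scaling by library size only (adjusted p = 0.0549 to 0.241), and those of Col11a1 and Plod3 in some or all of the fits that left out, singly, replicates 1, 2 and 3 of saline, the 4 PPE week 1 libraries and replicates 1, 3 and 4 of PPE week 2 (adjusted p = 0.05 to 0.168). With scaling by library size only the adjusted p of Col11a1 was 0.0503 and that of Plod3 0.323, and 0 genes of the list were called. Lox, which crosslinks collagen and elastin, was at 12.6 ± 2.05 and 9.31 ± 3.01 CPM (-0.44 ± 0.35 SE, adjusted p = 0.530).

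Has2, the main synthase of hyaluronan, had the largest fall of the named genes that kept counts at day 14. It was at 19.3, 33.4, 27.2 and 26.1 CPM in the PPE week 1 replicates and 5.22, 4.60, 0.350 and 1.87 CPM in the PPE week 2 replicates, 8.82-fold lower (-3.14 ± 0.53 SE, adjusted p = 0.00289; NM_008216, chromosome 15, 56665627 to 56694546). Each later value lay below each saline value, the lowest of which was 12.3 CPM, and the call held in all 23 alternative analyses. Hyal1, an enzyme that degrades hyaluronan, rose from 10.9 ± 4.15 to 30.0 ± 13.7 CPM with overlapping weeks (1.46 ± 0.35 SE, adjusted p = 0.0201). Its call ended without replicate 1 or 2 of PPE week 1 or replicate 1 of PPE week 2, and with limma-voom (adjusted p = 0.0529 to 0.0812). The small proteoglycan Prelp rose from 158 ± 30.0 to 289 ± 35.3 CPM (0.87 ± 0.15 SE, adjusted p = 0.00333). The other 12 tested proteoglycan and hyaluronan genes did not pass the test.

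Matrix proteases fell in 4 and rose in 1 of 29 tested cases, at a median of -0.22. These are 13.8% lower and 3.45% higher, against 2.82 and 3.77% over all features. Mmp14, a membrane-bound collagenase that also activates Mmp2, was at 886, 765, 717 and 644 CPM and then at 264, 379, 299 and 440.2 CPM (-1.12 ± 0.16 SE, adjusted p = 0.00109; NM_008608, chromosome 14, 54431598 to 54442456). All later values were below the lowest saline value, 552 CPM. Adam10, a sheddase, fell from 249, 258, 245 and 236 CPM to 179, 179, 143 and 164 CPM (-0.57 ± 0.11 SE, adjusted p = 0.00620) and the lysosomal cathepsin Ctsb from 1589 ± 177 to 976 ± 200.1 CPM (-0.70 ± 0.13 SE, adjusted p = 0.00493). Scaling by library size only ended both calls (adjusted p = 0.261 and 0.121). Mmp3, stromelysin, fell from 170.3 ± 35.0 to 99.1 ± 33.3 CPM (-0.78 ± 0.22 SE, adjusted p = 0.0441), but its call ended without any 1 saline library, replicate 1, 2 or 4 of PPE week 1 or replicate 1 or 3 of PPE week 2, and with scaling by library size only (adjusted p = 0.0522 to 0.195). Adamts8 was the gene that rose (2.32 ± 0.56 SE, adjusted p = 0.0293), with overlapping weeks. Its call ended without replicate 1, 2 or 3 of PPE week 1 or replicate 3 of PPE week 2, and in the 8 PPE libraries alone (adjusted p = 0.0641 to 0.107).

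The proteases most often tied to aneurysm were not called. Mmp9, a gelatinase of leukocytes, was at 37.5, 95.8, 39.1 and 66.8 CPM and then 0.746, 25.3, 3.33 and 27.1 CPM (-2.08 ± 0.85 SE, adjusted p = 0.193). PPE week 2 replicates 1 and 3 were near 0 while replicates 2 and 4 were just above the saline range of 10.1 to 24.4 CPM. Mmp12, the elastase of macrophages, had a log2 fold change of -0.22 ± 0.45 SE, adjusted p = 0.858 and Mmp2 one of -0.15 ± 0.14 SE, adjusted p = 0.617. Among protease inhibitors 3 of 10 genes rose and 0 fell by edgeR (5 and 0 with an unadjusted p below 0.05, 4 and 0 by each of DESeq2 and limma-voom). They were Serpine2 (1.35 ± 0.31), the membrane-anchored Mmp inhibitor Reck (1.15 ± 0.26) and cystatin C, Cst3 (0.57 ± 0.15). The count was 0 without PPE week 1 replicate 1 or 2 and 1 without replicate 3 of PPE week 1 or replicate 3 of PPE week 2. All 3 calls ended in some or all of the fits that left out, singly, the 4 PPE week 1 libraries and replicate 3 of PPE week 2 (adjusted p = 0.0518 to 0.114). Timp2 was at 709 ± 60.5 and 948 ± 154 CPM with non-overlapping weeks (0.42 ± 0.13 SE, adjusted p = 0.0571).

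Fibroblast lists differed in direction, with members of each going the other way. Adventitial fibroblast markers had 7 of 20 tested genes called higher and 1 lower, at a median of 0.41, with 14 fold changes above 0. The gene called lower was Mfap5 (-0.50 ± 0.15 SE, adjusted p = 0.0488). Pdgfra (-0.59), Dcn (-0.27), Lum (-0.15), C3 (-0.14) and Cd34 (-0.10) were also below 0 and did not pass the test. Abca8a, a membrane transporter of resting fibroblasts, was at 58.2, 51.3, 78.2 and 109 CPM and later at 346, 186, 318 and 168 CPM (1.78 ± 0.27 SE, adjusted p = 0.00222). Pi16, a marker of adventitial progenitor-like fibroblasts, rose from 80.8, 99.2, 80.1 and 78.3 CPM to 174, 161, 129.9 and 169.7 CPM (0.91 ± 0.18 SE, adjusted p = 0.00665), and Dpep1 rose from 24.6 ± 3.63 to 54.8 ± 12.3 CPM (1.15 ± 0.22 SE, adjusted p = 0.00541). The weeks did not overlap for these 3 genes. Ogn, a small matrix proteoglycan, rose with overlapping weeks (1.01 ± 0.23 SE, adjusted p = 0.0189), a call that ended without replicate 1, 2 or 4 of PPE week 1 or replicate 1 or 3 of PPE week 2 (adjusted p = 0.0518 to 0.0806). The number of genes called higher was 3 without replicate 1 or 2 of PPE week 1 or replicate 3 of PPE week 2, and 4 without replicate 3 or 4 of PPE week 1 or replicate 1 of PPE week 2. The number called lower was 0 without any 1 PPE library other than PPE week 2 replicate 3, and with scaling by library size only.

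Markers of activated fibroblasts fell in 4 of 16 cases. Cthrc1, secreted by fibroblasts of injured arteries, was at 72.3, 49.0, 53.0 and 37.6 CPM in the PPE week 1 replicates and 10.4, 10.4, 17.9 and 7.41 CPM in the PPE week 2 replicates (-2.20 ± 0.30 SE, adjusted p = 0.00104; NM_026778, chromosome 15, 39076932 to 39087121). Its PPE week 1 values overlapped the saline range of 30.1 to 63.2 CPM, and every later value was below it. Adam12, a metalloprotease of activated mesenchymal cells, fell from 274, 205, 224 and 197 CPM to 68.3, 44.0, 43.6 and 93.3 CPM (-1.85 ± 0.22 SE, adjusted p = 0.000650), again to below each saline library, the lowest of which was at 126 CPM. In the list edgeR called 0 higher and 4 lower of 16 tested (0 and 8 with an unadjusted p below 0.05), DESeq2 0 and 7 and limma-voom 0 and 7, with a median of -0.51. The crosslinking enzyme Loxl2 fell by less (-0.71 ± 0.14 SE, adjusted p = 0.00690), a call lost with scaling by library size only (adjusted p = 0.0985). Postn, periostin, was at 12.4 ± 4.30 and 8.71 ± 4.24 CPM (-0.51 ± 0.37 SE, adjusted p = 0.504). Of the 16 fold changes 4 were above 0, those of Tnfrsf12a (1.19), Ltbp2 (0.47), Inhba (0.23) and Fap (0.12), and these did not pass the test.

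The largest rise among named genes was that of Sost. It encodes sclerostin, a secreted inhibitor of Wnt signalling known from bone cells and also made by aortic smooth muscle. Sost was at 12.9, 9.29, 12.9 and 35.1 CPM in PPE week 1 replicates 1 to 4, at 152, 184, 646 and 158 CPM in PPE week 2 replicates 1 to 4 and at 93.2, 86.9, 126 and 82.7 CPM in saline replicates 1 to 4. The earlier values were all below saline and the later ones all above it, with replicate 3 far above the other 3. The fold change was 16.3 (4.02 ± 0.61 SE, adjusted p = 0.00490; NM_024449, chromosome 11, 101962458 to 101967015). Phex, a peptidase that restrains phosphate loss and is known from mineralising cells, was at 2.66, 0.442, 0.823 and 0.499 CPM and then at 22.2, 8.82, 29.2 and 11.9 CPM (4.00 ± 0.80 SE, adjusted p = 0.00881). Cytl1, a secreted protein known from cartilage among other tissues, rose from 6.88, 4.87, 10.0 and 8.28 CPM to 57.7, 23.7, 33.2 and 30.1 CPM (2.26 ± 0.30 SE, adjusted p = 0.00104), below the saline mean of 61.8 ± 13.5. In the cartilage and bone list these 2, Sost and Cytl1, were called of 12 tested (4 higher and 0 lower with an unadjusted p below 0.05 and by DESeq2, 2 and 0 by limma-voom).

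Other large rises were spread over functions. Slc25a34, a mitochondrial carrier, rose from 2.30 ± 1.28 to 22.5 ± 14.1 CPM (3.29 ± 0.53 SE, adjusted p = 0.00200) in all 23 alternatives, and the collagen Col19a1 from 3.60 ± 2.21 to 34.1 ± 21.3 CPM (3.26 ± 0.63 SE, adjusted p = 0.00982), beside 37.0 ± 8.92 in saline. Prr15, Inmt and Ndrg2 were low at PPE week 1, at 0.811 ± 0.195, 0.728 ± 0.932 and 0.903 ± 0.666 CPM, and rose to 7.21 ± 3.40, 10.3 ± 3.46 and 6.26 ± 4.54 CPM. The call of Inmt ended without replicate 1, 2 or 3 of saline, replicate 1, 2 or 3 of PPE week 1 or any 1 PPE week 2 library (adjusted p = 0.0514 to 0.139). That of Ndrg2 ended without replicate 1, 2 or 4 of PPE week 1 or replicate 1 or 3 of PPE week 2, and with limma-voom (adjusted p = 0.0717 to 0.162).

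Genes of TGF-beta and BMP signalling had 3 of 22 members called higher and 0 lower by edgeR, against 7 and 1 with an unadjusted p below 0.05, and DESeq2 called 4 and 1 and limma-voom 2 and 1. Ccn2, a matrix-bound growth factor induced by TGF-beta and by stretch, was at 313, 280.4, 356 and 366 CPM and then at 565, 877, 1357 and 635 CPM (1.38 ± 0.28 SE, adjusted p = 0.0146), beside 1049 ± 329 in saline. The weeks did not overlap, and the adjusted p was 0.0566 without PPE week 1 replicate 1 and 0.0696 without PPE week 1 replicate 2. The other called genes were the ligand Tgfb3 (0.91 ± 0.25 SE, adjusted p = 0.0449) and the BMP receptor Bmpr1a (0.59 ± 0.17 SE, adjusted p = 0.0498), both near the threshold. Their calls ended in some or all of the fits that left out, singly, the 4 saline libraries, the 4 PPE week 1 libraries and replicates 2 and 3 of PPE week 2 (adjusted p = 0.0568 to 0.182), and that of Bmpr1a also with limma-voom (adjusted p = 0.0713). The count was 0 without PPE week 1 replicate 2, 5 without PPE week 2 replicate 4 and 1 without PPE week 1 replicate 1, 3 or 4, PPE week 2 replicate 3 or any saline library.

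**Figure D3:**
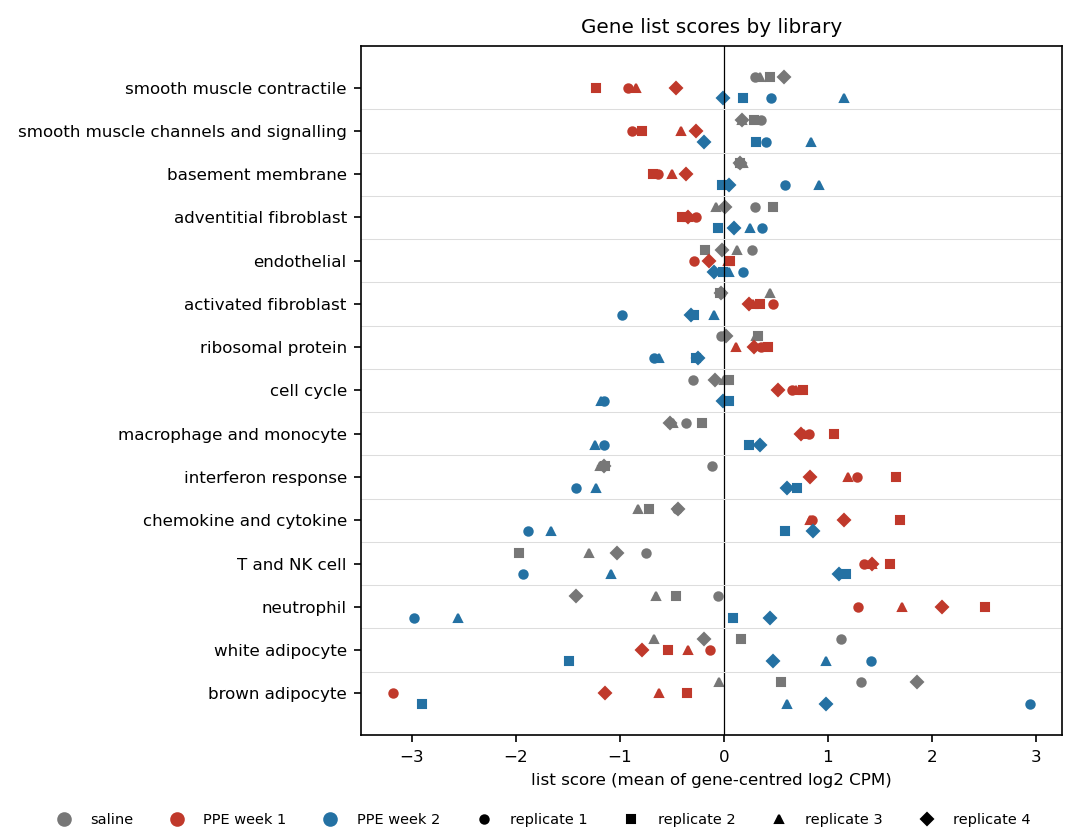
Score of 15 gene lists in each library (horizontal axis, mean over the tested genes of log2 CPM minus the gene's mean over 12 libraries), saline in gray, PPE week 1 in red and PPE week 2 in blue, replicates by symbol. The PPE week 2 libraries lie between -0.67 and -0.25 for ribosomal protein, with replicates 1 and 3 the lower ones. They lie farther apart for the immune and adipocyte lists. Replicates 1 and 3 have macrophage scores of -1.15 and -1.24, and replicates 2 and 4 of 0.24 and 0.34.

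Macrophage genes were lower at PPE week 2, with a spread that let few of them pass the test. Cd68, which sits in macrophage lysosomes, was at 125, 141, 107 and 106 CPM in the PPE week 1 replicates and 44.7, 67.5, 28.5 and 63.5 CPM in the PPE week 2 replicates (-1.23 ± 0.22 SE, adjusted p = 0.00403; NM_001291058, chromosome 11, 69664213 to 69666170), beside 42.8 ± 4.90 in saline. No later value reached the lowest earlier one. Of 22 tested macrophage and monocyte genes, 16 had all PPE week 2 libraries below all PPE week 1 libraries, against 8.68% of all features. EdgeR called 0 higher and 4 lower of 22 tested (0 and 16 with an unadjusted p below 0.05), DESeq2 0 and 10 and limma-voom 0 and 16. The median was -1.17, and 21 of the 22 fold changes were below 0. The number called lower was 1 without any 1 PPE week 1 library or without PPE week 2 replicate 1 or 3, 5 without PPE week 2 replicate 2, 9 without PPE week 2 replicate 4 and 2 without any 1 saline library. The summed level given above was 3492 to 4097 CPM in saline. Itgam and Ctss, which belong to the list of 27, are listed at 0 in all 8 PPE libraries.

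The antibacterial lysozyme Lyz2 fell from 1563, 2462, 1869 and 1924 CPM to 529, 1141, 484 and 1265 CPM (-1.19 ± 0.29 SE, adjusted p = 0.0324), where replicates 1 and 3 were below each saline library and replicates 2 and 4 above each. Its call ended without any 1 PPE week 1 library or replicate 1 or 3 of PPE week 2, and with scaling by library size only (adjusted p = 0.0556 to 0.111). The signalling adaptor Tyrobp (-1.27 ± 0.34 SE, adjusted p = 0.0455) and the Fc receptor Fcgr3 (-1.17 ± 0.32 SE, adjusted p = 0.0463) also passed. Their calls ended in some or all of the fits that left out, singly, the 4 saline libraries, the 4 PPE week 1 libraries and replicates 1 and 3 of PPE week 2 (adjusted p = 0.0544 to 0.143), and with scaling by library size only (adjusted p = 0.111 and 0.126). Adgre1, the F4/80 antigen of mouse macrophages, was at 303, 286, 249 and 266 CPM and then at 65.0, 234, 98.1 and 237 CPM (-0.80 ± 0.34 SE, adjusted p = 0.208). Each later value was below each earlier one, but replicates 1 and 3 of PPE week 2 were under the saline minimum of 136 CPM and replicates 2 and 4 above the saline maximum of 179 CPM.

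**Figure D4:**
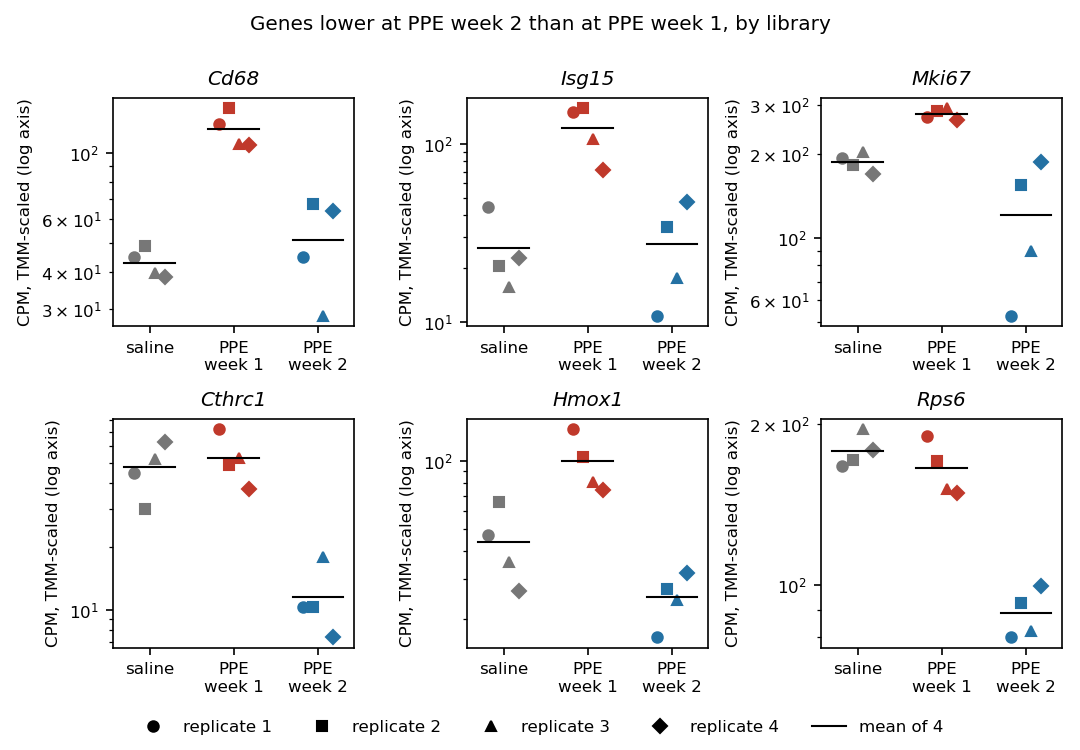
TMM-scaled CPM of 6 genes (vertical log axes) in each of the 12 libraries, with saline in gray, PPE week 1 in red and PPE week 2 in blue, replicate numbers by symbol and a bar at the mean of 4. In all 6 panels each PPE week 2 library lies below each PPE week 1 library, and for Cthrc1 and Rps6 also below each saline library.

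Interferon response genes, which cells switch on after sensing nucleic acids or interferon, had lower means at PPE week 2, and 2 of them passed the test. Isg15, a ubiquitin-like protein, was at 152, 159, 106 and 71.6 CPM in PPE week 1 replicates 1 to 4 and at 10.8, 34.0, 17.7 and 47.4 CPM in PPE week 2 replicates 1 to 4, 4.44-fold lower (-2.15 ± 0.47 SE, adjusted p = 0.0194; NM_015783, chromosome 4, 156199424 to 156200818). The later values straddled the saline range of 15.7 to 44.3 CPM. Its call ended without replicate 1 or 2 of PPE week 1 or replicate 3 of PPE week 2 (adjusted p = 0.0559 to 0.0696). All 28 tested genes of the list had a fold change below 0, with a median of -1.35. In 17 of them all PPE week 2 libraries lay below all PPE week 1 libraries, against 8.68% of all features. EdgeR called 0 higher and 2 lower of 28 tested (0 and 17 with an unadjusted p below 0.05), DESeq2 0 and 14 and limma-voom 0 and 21. The 2 called by edgeR are 7.14% of the list, against 2.82% lower over all features. The number called lower was 8 without PPE week 2 replicate 2 or 4, 0 without replicate 3 of PPE week 2 or replicate 1 or 2 of PPE week 1 and 1 without PPE week 1 replicate 3 or 4. Without saline replicate 1 it was 4, and without saline replicate 3 or 4 it was 1. Stat2, a transcription factor of the interferon signal, was at 372 ± 75.6 and 154 ± 81 CPM (-1.27 ± 0.33 SE, adjusted p = 0.0411). The call of Stat2 ended without replicate 2, 3 or 4 of saline, any 1 PPE week 1 library or replicate 3 of PPE week 2, and with scaling by library size only (adjusted p = 0.0501 to 0.130).

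Interferon-responsive promoters carry an element with the core letters GAAA, any 2 bases, then GAAA again. In the 250 bases before the start, 14 of 23 tested interferon response genes with an entry in RefSeq's promoter table (GRCm38.p6) held it on either strand (60.9%), against 978 of 32851 entries (2.98%). Here too a gene counted if any of its entries held the element, while the second share is over single entries. Cxcl10, Isg15, Stat2 and Rsad2 were among the 14. The window of Isg15, the called gene with the smaller adjusted p, is shown 5′ to 3′ in the direction of transcription. It is chr4:156200819-156201068 on the minus strand, and its 3 overlapping matches, in capitals, begin 66 to 78 bases before the start.
Isg15: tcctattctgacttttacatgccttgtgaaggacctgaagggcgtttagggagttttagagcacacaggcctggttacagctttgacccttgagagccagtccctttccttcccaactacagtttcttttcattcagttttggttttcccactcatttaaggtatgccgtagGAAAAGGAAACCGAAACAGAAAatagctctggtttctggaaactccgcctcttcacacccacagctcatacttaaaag
This again describes letters, not a bound factor.

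Chemokines and cytokines showed the same split between libraries of PPE week 2. Ccl2, which draws monocytes, was at 55.5, 70.2, 45.9 and 69.0 CPM and then at 4.94, 42.7, 4.99 and 45.7 CPM (-1.29 ± 0.69 SE, adjusted p = 0.334). Il1b, an inflammatory cytokine, was at 132, 402, 136 and 227 CPM and then 8.58, 62.0, 6.31 and 99.2 CPM (-2.35 ± 0.89 SE, adjusted p = 0.164), and the interferon-induced chemokine Cxcl10 at 141, 163, 87.2 and 88.8 CPM and then 12, 42.3, 6.13 and 46.2 CPM (-2.17 ± 0.60 SE, adjusted p = 0.0579). For all 3 the weeks did not overlap, replicates 1 and 3 of PPE week 2 were the lower ones, and the test was not passed. Of 29 tested genes, edgeR called 0 higher and 1 lower (0 and 8 with an unadjusted p below 0.05), DESeq2 0 and 5 and limma-voom 0 and 8, with a median of -1.10. The 1 called by edgeR is 3.45% of the list, near the 2.82% lower over all features. The called gene was Ccl9 (-1.75 ± 0.45 SE, adjusted p = 0.0442), a call that ended without any 1 saline library, any 1 PPE week 1 library or replicate 1, 2 or 3 of PPE week 2, and with scaling by library size only (adjusted p = 0.0510 to 0.127). Without PPE week 2 replicate 4 the number called lower was 5, and without any other single PPE library it was 0.

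Lymphocyte and granulocyte genes were at low counts. Of 16 T and NK cell genes, edgeR called 0 higher and 1 lower (0 and 2 with an unadjusted p below 0.05), DESeq2 0 and 1 and limma-voom 0 and 3, at a median of -1.11. The 1 called by edgeR is 6.25% of the list, against 2.82% lower over all features. Gzma, a granzyme of killer cells, fell from 6.79, 19.0, 18.5 and 11.9 CPM to 1.87, 3.36, 4.12 and 5.61 CPM (-1.90 ± 0.47 SE, adjusted p = 0.0239), a call that ended without replicate 2 or 3 of PPE week 1 or replicate 1 or 3 of PPE week 2 (adjusted p = 0.0534 to 0.107). The list's score was -1.93, 1.17, -1.09 and 1.10 in PPE week 2 replicates 1 to 4 against 1.34 to 1.60 at PPE week 1. Among 8 neutrophil genes edgeR called 0 in either direction, against 0 higher and 4 lower with an unadjusted p below 0.05 and 3 lower by each of DESeq2 and limma-voom. Without PPE week 2 replicate 3 or 4 edgeR called 2 and 3 of them lower. The neutrophil median was -2.58, and their summed level was 100.3 to 247 CPM at PPE week 1 and 8.06 to 105 CPM at PPE week 2. The B and plasma cell list stood on the other side, with 8 of 8 fold changes above 0 and a median of 0.85. EdgeR, DESeq2 and limma-voom called 0 of these 8, and 1 was higher with an unadjusted p below 0.05. For 15 genes of dendritic cells and MHC class II the median was -0.50, with 0 called by edgeR or DESeq2, 1 lower by limma-voom and 2 lower with an unadjusted p below 0.05. EdgeR called 1 of them lower without PPE week 2 replicate 2.

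Mast cell genes had 1 of 5 called lower and 0 higher by edgeR (1 and 0 in DESeq2 and limma-voom and with an unadjusted p below 0.05), with a median of 0.38 and 3 of the 5 fold changes above 0. The mast cell proteases Mcpt4 (1.06 ± 0.93 SE, adjusted p = 0.591), Cma1 (0.80 ± 0.81 SE, adjusted p = 0.655), Cpa3 (0.38 ± 0.89 SE, adjusted p = 0.875) and Tpsb2 (-0.32 ± 0.93 SE, adjusted p = 0.901) did not pass the test. The called gene was Hdc, whose enzyme makes histamine. It fell from 31.7, 109, 29.3 and 49.2 CPM to 4.10, 9.02, 1.93 and 19.1 CPM (-2.67 ± 0.64 SE, adjusted p = 0.0281), beside 4.04 ± 1.46 in saline. Its call ended without replicate 2 or 4 of PPE week 1 or replicate 1 or 2 of PPE week 2, and in the 8 PPE libraries alone (adjusted p = 0.0518 to 0.0760). Complement genes split, with 2 of 12 called higher and 0 lower by edgeR (2 and 3 with an unadjusted p below 0.05 and by DESeq2, 2 and 2 by limma-voom). EdgeR called 1 lower without PPE week 2 replicate 2 and 2 without replicate 4. C7, a part of the membrane attack complex, rose (1.34 ± 0.35 SE, adjusted p = 0.0463), and its call ended without replicate 1 or 4 of saline, any 1 PPE week 1 library or replicate 1 or 3 of PPE week 2 (adjusted p = 0.0651 to 0.152).

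Genes of iron, heme and lysosomes, which are active in macrophages among other cells, fell in 3 of 11 and 3 of 17 cases. Hmox1, the enzyme that breaks down heme, was at 138, 104, 80.7 and 74.4 CPM in the PPE week 1 replicates and 16.6, 27.1, 24.3 and 32.0 CPM in the PPE week 2 replicates, 3.97-fold lower (-1.99 ± 0.28 SE, adjusted p = 0.00109; NM_010442, chromosome 8, 75093618 to 75100593), a call made in all 23 alternatives. The iron store Ftl1 fell from 667 ± 96.3 to 443 ± 68.2 CPM (-0.59 ± 0.13 SE, adjusted p = 0.0147) and the iron transporter of phagosomes Slc11a1 from 84.8 ± 22.0 to 36.8 ± 16.4 CPM (-1.20 ± 0.30 SE, adjusted p = 0.0281). Of 11 tested iron and heme genes, edgeR called these 3 lower and 0 higher, the same numbers as with an unadjusted p below 0.05, by DESeq2 and by limma-voom. Without PPE week 1 replicate 2 it called 1. The call of Ftl1 ended without replicate 1 or 2 of PPE week 1, and with scaling by library size only (adjusted p = 0.0516 to 0.198), and that of Slc11a1 without replicate 2 or 4 of PPE week 1 or replicate 3 of PPE week 2, and with scaling by library size only (adjusted p = 0.0606 to 0.0979). In the lysosome list 3 of 17 genes were called lower, namely Npc2 (-0.66 ± 0.17), Gusb (-0.70 ± 0.18) and Asah1 (-0.59 ± 0.16). This count was 0 without replicate 2, 3 or 4 of PPE week 1 or replicate 3 of PPE week 2, 1 without PPE week 1 replicate 1 and 5 without PPE week 2 replicate 4. The 3 calls ended in some or all of the fits that left out, singly, the 4 PPE week 1 libraries and replicates 1 and 3 of PPE week 2 (adjusted p = 0.0515 to 0.114). With scaling by library size only their adjusted p was 0.294, 0.192 and 0.365, and 0 lysosome genes were called lower.

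Cell cycle genes had lower means at PPE week 2 and fell in 7 of 26 cases. Mki67, the proliferation antigen, was at 273, 285, 293 and 264 CPM in PPE week 1 replicates 1 to 4 and 52.8, 154, 90.4 and 188 CPM in PPE week 2 replicates 1 to 4 (-1.20 ± 0.29 SE, adjusted p = 0.0277). In saline it was at 193, 182, 204 and 169.5 CPM, and replicates 1 to 3 of PPE week 2 were below all of these. Its call ended without any 1 PPE week 1 library or replicate 3 of PPE week 2, and with scaling by library size only (adjusted p = 0.0544 to 0.0896). Foxm1, a transcription factor of dividing cells, fell from 27.1, 34.9, 31.6 and 36.6 CPM to 5.6, 9.88, 9.02 and 17.4 CPM (-1.63 ± 0.33 SE, adjusted p = 0.00762), with no overlap between the weeks. Of 26 tested genes, edgeR called 7 lower and 0 higher, against 15 and 0 with an unadjusted p below 0.05, and DESeq2 called 12 and 0 and limma-voom 10 and 0, at a median of -0.88. The number called lower was 2 without replicate 1, 2 or 3 of PPE week 1 or replicate 3 of PPE week 2. It was 3 without PPE week 2 replicate 1, 4 without PPE week 1 replicate 4, and 9 and 8 without PPE week 2 replicates 2 and 4. The list score was -1.15, 0.05, -1.18 and -0.01 in PPE week 2 replicates 1 to 4, against -0.30 to 0.05 in saline. The kinetochore motor Cenpe (-1.41 ± 0.31) and the spindle motor Kif11 (-1.18 ± 0.31) were among the 7. The call of Cenpe ended in the 8 PPE libraries alone (adjusted p = 0.0612). The call of Kif11 ended without replicate 1, 2 or 3 of PPE week 1 or replicate 1 or 3 of PPE week 2, and with scaling by library size only (adjusted p = 0.0696 to 0.116). A CCAAT box, which cell cycle promoters often carry, was found on either strand for 19 of the 22 tested cell cycle genes with a promoter entry (86.4%). Of all single promoter entries, 33.9% held it. A gene counted if any of its entries held the box, so these shares differ in unit.

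Ribosomal protein genes fell in 14 of 31 cases. Rps6, a component of the small ribosomal subunit, was at 190.0, 171, 151 and 148 CPM and then at 80.02, 92.6, 82.1 and 99.7 CPM (-0.90 ± 0.13 SE, adjusted p = 0.00109), against 178 ± 12.6 CPM in saline. All later values were below all earlier and all saline values. Of 31 tested genes 14 fell and 0 rose by edgeR, against 22 and 0 with an unadjusted p below 0.05, and DESeq2 called 19 and 0 and limma-voom 17 and 0, and 30 of 31 fold changes were below 0. The median was -0.77, but -0.55 under library size scaling, where 4 were called lower and all features had a median of 0.23. Leaving out PPE week 1 replicate 2 left 8 called, and leaving out replicate 4 of PPE week 1 or replicate 3 of PPE week 2 left 9. Rpl3, of the large subunit, fell from 109 ± 10.4 to 50.5 ± 9.11 CPM (-1.11 ± 0.17 SE, adjusted p = 0.00142), and Rpl4 (-0.70 ± 0.12) and Rps4x (-0.79 ± 0.16) fell too, though scaling by library size only ended the calls of these last 2 (adjusted p = 0.0691 and 0.0637). Many ribosomal protein genes have processed pseudogenes of near-identical sequence, so each single gene is uncertain.

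Translation factor Eef1a1 fell alongside, from 1862, 2028, 1869.6 and 1875 CPM to 1067, 1343, 1103 and 1243 CPM (-0.68 ± 0.10 SE, adjusted p = 0.00142), a call lost with scaling by library size only (adjusted p = 0.0592). In the reference gene list that holds it, 1 of 11 genes rose and 2 fell, with a median of -0.45, and 1 fell without any 1 PPE week 1 library or PPE week 2 replicate 3. Among 19 genes of folding in the endoplasmic reticulum, edgeR called 4 lower and 0 higher (10 and 0 with an unadjusted p below 0.05, 5 and 0 in DESeq2, 4 and 0 in limma-voom; median -0.43). Pdia3, a disulfide isomerase, fell from 796, 953, 898 and 769 CPM to 516, 639.5, 544 and 603 CPM (-0.57 ± 0.11 SE, adjusted p = 0.00668), and P4hb, which serves both as an isomerase and in collagen hydroxylation, from 766 ± 45.2 to 542 ± 42.8 CPM (-0.50 ± 0.10 SE, adjusted p = 0.00883). Scaling by library size only ended both calls (adjusted p = 0.197 and 0.257) and left 0 of the 19 called. The count was 2 without any 1 PPE week 1 library or without PPE week 2 replicate 1.

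Apart from Has2, the largest falls included Apln, the ligand of the apelin receptor, which went from 6.15, 13.3, 11.2 and 10.4 CPM to 1.49, 1.34, 1.93 and 2.23 CPM (-2.54 ± 0.51 SE, adjusted p = 0.00726). Mctp2, a calcium-binding membrane protein, fell from 22.2 ± 6.06 to 4.53 ± 2.10 CPM (-2.29 ± 0.43 SE, adjusted p = 0.00509), close to 3.77 ± 1.82 in saline. Ticrr, needed to fire origins of DNA replication, fell from 11.4 ± 5.26 to 1.46 ± 1.02 CPM (-2.95 ± 0.73 SE, adjusted p = 0.0231). The call of Ticrr ended without replicate 1 of PPE week 1 or replicate 3 of PPE week 2, in the 8 PPE libraries alone and with a replicate block (adjusted p = 0.0574 to 0.0884). Trim30b, Hnrnpa1l2-ps2 and the histone genes H4c9 and H2ac22 also fell, and each is uncertain because near-identical copies could share its reads. Their calls ended in some or all of the fits that left out, singly, replicates 1 and 3 of saline, the 4 PPE week 1 libraries and replicates 1, 2 and 3 of PPE week 2 (adjusted p = 0.0505 to 0.133), and that of Trim30b also with scaling by library size only (adjusted p = 0.0853). Ankrd37, a gene induced by hypoxia, had 17 to 33 counts in the PPE week 1 libraries and 0 in all 4 PPE week 2 libraries. Against a floor of 3 counts per library it was at least 8.72-fold lower (edgeR adjusted p = 0.0257). Its call ended without replicate 2 or 3 of PPE week 1 or replicate 3 of PPE week 2 (adjusted p = 0.0519 to 0.0725). Of 21 tested genes of glycolysis and hypoxia it was the only one edgeR called (4.76% lower, against 2.82% over all features).

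Immediate early genes, which respond within minutes to stimuli and to handling of tissue, were lower in 3 of 20 cases and higher in 0 by edgeR, against 3 higher and 6 lower with an unadjusted p below 0.05, and DESeq2 called 2 and 3 and limma-voom 0 and 3. Fos fell from 63.7, 105, 49.0 and 61.4 CPM to 24.5, 42.1, 34.8 and 38.8 CPM (-0.99 ± 0.28 SE, adjusted p = 0.0441), Ier3 by 1.31 on the log2 scale (adjusted p = 0.0246) and Fosl2 by 0.47 (adjusted p = 0.0498). The call of Fos ended without replicate 1, 2 or 4 of PPE week 1 or replicate 1 or 3 of PPE week 2, and with scaling by library size only (adjusted p = 0.0705 to 0.195). That of Fosl2 ended without any 1 saline library, any 1 PPE week 1 library or replicate 1, 2 or 3 of PPE week 2, and with scaling by library size only or with limma-voom (adjusted p = 0.0516 to 0.450), and that of Ier3 without replicate 2 of PPE week 1 or replicate 1 or 3 of PPE week 2, and with scaling by library size only (adjusted p = 0.0597 to 0.134). The count was 0 without replicate 2 of PPE week 1 or replicate 1 or 3 of PPE week 2, and 1 without PPE week 1 replicate 1 or 4.

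Endothelial genes had 3 of 15 members called higher and 0 lower by edgeR, against 4 and 0 with an unadjusted p below 0.05 and 3 and 0 by each of DESeq2 and limma-voom, although their median was 0.02. Nos3, the endothelial nitric oxide synthase, was at 30.8, 35.7, 32.2 and 38.4 CPM and later at 78.9, 57.3, 73.5 and 41.5 CPM (0.87 ± 0.20 SE, adjusted p = 0.0156), with every later value within or above the saline range of 40.1 to 43.1 CPM. Ptprb, a phosphatase that restrains Tie receptors, rose from 253 ± 27.3 to 444 ± 117 CPM (0.81 ± 0.15 SE, adjusted p = 0.00531), and the clotting protein Vwf from 219 ± 56.2 to 402 ± 106 CPM (0.87 ± 0.21 SE, adjusted p = 0.0204). The call of Nos3 ended without replicate 1, 2 or 3 of PPE week 1 or replicate 3 of PPE week 2 (adjusted p = 0.0504 to 0.0597). That of Vwf ended without replicate 1 or 2 of PPE week 1, in the 8 PPE libraries alone and with a replicate block (adjusted p = 0.0503 to 0.0780). Without PPE week 1 replicate 1 or 2, 1 gene of the list was called. Pecam1, Tek and Sox17, defining genes of endothelium, are listed at 0 in all 8 PPE libraries and were not tested.

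Npas2, a paralog of Clock, was the gene called among 15 of the circadian clock (6.67% higher, against 3.77% over all features). It rose from 10.2, 15.6, 25.4 and 24.9 CPM to 54.1, 77.2, 94.5 and 36.2 CPM (1.78 ± 0.31 SE, adjusted p = 0.00356), beside 48.5 ± 7.82 in saline. The labels do not give the hour of harvest. S100b, a protein of glia and Schwann cells, was the gene called of 13 for Schwann cells and neurons (7.69% higher, against the same 3.77%). It rose from 5.23, 4.31, 6.66 and 1.80 CPM to 20.5, 10.5, 11.1 and 11.3 CPM (1.56 ± 0.43 SE, adjusted p = 0.0405). PPE week 2 replicate 1 was the highest, and the call ended without replicate 1 or 3 of saline, replicate 1, 2 or 4 of PPE week 1 or replicate 1 or 3 of PPE week 2 (adjusted p = 0.0531 to 0.135).

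Adipocyte genes, which mark the fat around the vessel, varied between libraries. Summed over the tested genes, white adipocyte markers were at 436 to 760.0 CPM at PPE week 1 and 349.9 to 3742 CPM at PPE week 2, and brown adipocyte markers at 7.44 to 48.8 and 12.4 to 614 CPM. PPE week 2 replicate 1 was the highest of the brown adipocyte scores, at 2.94, and replicate 2 the lowest of that group, at -2.90. EdgeR called 0 of 10 white and 0 of 7 brown adipocyte genes, against 4 and 4 higher with an unadjusted p below 0.05, 4 and 2 by DESeq2 and 0 and 0 by limma-voom. EdgeR called 5 white and 3 brown adipocyte genes higher without PPE week 2 replicate 2. Beside these values stand the genes of fat burning. Acadm, an enzyme of fatty acid oxidation, was at 28.0, 30.6, 34.6 and 27.9 CPM and then at 145, 35.1, 69.5 and 60.1 CPM (1.36 ± 0.37 SE, adjusted p = 0.0443), highest in replicate 1, and its call ended without replicate 2 or 4 of saline, any 1 PPE week 1 library or replicate 1 or 3 of PPE week 2, and with limma-voom (adjusted p = 0.0621 to 0.133). Ndufv1, a subunit of respiratory complex I, was at 27.4, 41.7, 39.5 and 32.5 CPM and then 129, 43.6, 70.3 and 86.9 CPM (1.23 ± 0.30 SE, adjusted p = 0.0251), also highest in replicate 1. The call of Ndufv1 ended without any 1 PPE week 1 library or replicate 1 of PPE week 2 (adjusted p = 0.0522 to 0.0839). These 2 were the called members of 17 fatty acid oxidation genes (median 0.83) and of 23 oxidative phosphorylation genes (median 0.38). They make up 5.88 and 4.35% of the lists, near the 3.77% called higher over all features. Without PPE week 2 replicate 1 the median of fatty acid oxidation was 0.36, and without replicate 2 it was 1.06 with 8 genes called. The median of oxidative phosphorylation was 0.11 without replicate 1, and 3 of its genes were called without replicate 2. The part of adipose tissue in these results was not tested. In 7 lists of other neighbouring tissues and cells (lymphatic endothelium, skeletal and heart muscle, mesothelium, exocrine pancreas, kidney and adrenal, red blood cells) edgeR called 0 of 20 tested genes, against 2 higher and 1 lower with an unadjusted p below 0.05, and DESeq2 called 2 and 0 and limma-voom 0 and 0.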

How the data were processed

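The data are raw counts of RefSeq accessions in a table the authors deposited for 12 libraries, each of total RNA from the aorta of 1 mouse. Per the labels' protocols, RNA was extracted with TRIzol, purified with the RNeasy Micro Kit and made into libraries with the TruSeq RNA Sample Prep Kit v2, which does not mark strand, so that overlapping antisense genes cannot be told apart. Tools and build named, per the submitters' processing notes, are bcl2fastq, DESeq2 and mm10. Aligner, counter and annotation: not given in the sources used here. Of the deposited counts from 2 to 20, 66.0 to 75.6% were even in each library, so 1 fragment may add 2 to a count. The authors' tables of comparisons were not used here.

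Of 34755 accessions, 34424 were named from RefSeq (GRCm38.p6), 192 from GENCODE only, and 139 had no symbol. All 12 libraries (3 groups of 4, total counts 8343313 to 12269131) entered 1 fit with edgeR 4.0.16 in R 4.3.3 (filterByExpr with a minimum count of 10, TMM, robust glmQLFit, glmQLFTest for PPE week 2 minus PPE week 1, Benjamini-Hochberg over 12756 features, threshold 0.05). Fold changes are log2 with their standard error (SE). Alternatives were DESeq2 1.42.0, limma-voom (limma 3.58.1), other scalings and filters, the 8 PPE libraries alone, a replicate block, the NR_046233 share as a covariate, halved counts, summed accessions and each library left out. The steps were tested on simulated data with changes set in randomly drawn features. At a log2 fold change of 1 in either direction, 21.9% of 96 changed features were called, and at 2, 54.8% of 93. There was 1 false call. A gene that was not called may therefore still have changed. Single values per library were compared by an exact permutation test.

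The members and the 46 gene lists were chosen with earlier results of these data known. Named by rule were the 10 largest rises and falls with non-overlapping libraries and a higher group of at least 5 CPM, up to 4 called genes per list, and a fixed set of wall genes. Further genes of a list (Vcl, Fbln5, Lama3, Lamb1, Col4a3, Col4a6, Col18a1, Hspa1b, Hspa8, Agrn, Col4a2) were named after their values were seen. So were the fibroblast genes Mfap5, Pdgfra, Dcn, Lum, C3, Cd34, Tnfrsf12a, Ltbp2, Inhba and Fap. A gene is represented by its accession with the highest mean CPM. Results for 3 called genes are not reported here.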

Additional observations from a re-analysis of the deposited data

Results flagged for a closer look

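Among 356 groups of 4 libraries checked, 13 held 1 library whose distance from the other 3 was above Dixon's critical value of 0.829, where chance gives about 1 in 20 groups. Of the rising genes, Sost was at 646 CPM in PPE week 2 replicate 3 against 152 to 184 CPM in the other 3, and at 35.1 CPM in PPE week 1 replicate 4 against 9.29 to 12.9 CPM. Hspg2 was at 4066 CPM in PPE week 2 replicate 3 against 2722 to 2947 CPM, and Hspb7 at 185 CPM in the same library against 66.6 to 81.6 CPM. Itga7 was at 30.9 CPM in PPE week 1 replicate 2 against 46.9 to 48.0 CPM, Pi16 at 99.2 CPM in that library against 78.3 to 80.8 CPM, and Ogn at 145 CPM in PPE week 1 replicate 3 against 88.1 to 97.8 CPM. S100b was at 20.5 CPM in PPE week 2 replicate 1 against 10.5 to 11.3 CPM.

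Of the falling genes, PPE week 1 replicate 2 was apart for Ier3, at 39.6 CPM against 18.1 to 20.7 CPM, and for Eef1a1, at 2028 CPM against 1862 to 1875 CPM. Cenpe was at 87.5 CPM in PPE week 1 replicate 1 against 65.5 to 67.9 CPM. The score of the skeletal muscle list was -0.58 in PPE week 2 replicate 3 against 0.33 to 0.50 in the other 3. That of the proteoglycan and hyaluronan list was -0.54 in PPE week 2 replicate 2 against 0.02 to 0.05.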

How the results depend on the processing

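The number of features called higher, 481 in the reported fit, was 812 with DESeq2 and 54 with the NR_046233 share as a covariate, and 207 to 642 when single libraries were left out. The number called lower, 360, was 75 under library size scaling, 694 with limma-voom, 651 with DESeq2, 184 in the 8 PPE libraries alone and 15 with the covariate, and 112 to 607 when single libraries were left out. The median of the ribosomal protein list was -0.55 under library size scaling and -0.56 with the covariate. The cause of these shifts was not tested, though the fit of 8 libraries and those without 1 library hold fewer samples. With the replicate block 388 were higher and 330 lower, and of the 116 named calls 99 held. Replicate numbers do not pair the mice, and deviations of same-numbered libraries correlated at -0.09, 0.03, 0.04 and -0.06. Named calls held for 82 genes with scaling by library size only, 110 with limma-voom, 115 with DESeq2, 96 with no filter and 76 in the 8 PPE libraries. No named call reversed under any alternative run. The planned filter of 1 CPM in 4 libraries kept the same 12756 accessions as the reported one and tests nothing. It was replaced, after seeing the data, by 5 CPM in 4 libraries, which left 112 named calls. Accessions summed per gene, also chosen after seeing the data, gave 486 higher and 357 lower. Depth limits the low genes: 1 count is worth about 0.1 CPM.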

Other observations

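Replication-dependent histone genes, which are transcribed mainly while DNA is copied, fell in 16 of 44 accessions tested and rose in 0 by edgeR, against 2.82% lower and 3.77% higher over all features. This set was chosen after its values were seen, and its near-identical copies make single genes uncertain. All PPE week 2 libraries lay below all PPE week 1 libraries in 26 of the 44, against 8.68% of all features. H2bc21 and H2bc4 had log2 fold changes of 0.24 each and H4c4 one of 0.00, and none of these 3 passed the test. The median log2 fold change was -1.28. H4c11 fell from 17.9 ± 5.38 to 3.97 ± 1.99 CPM (-2.17, edgeR adjusted p = 0.00509) and H2bc18 from 48.5 ± 5.29 to 17.1 ± 8.17 CPM (-1.5, adjusted p = 0.0062).

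Calls varied with transcript length. Of accessions under 1000 bases, 1.66% were called higher and 5.61% lower, and of those of 8000 bases or more 9.30% were higher and 3.10% lower. Across 12515 tested accessions with a length, Pearson's r of log2 length and log2 fold change was 0.08, given as a description because genes share libraries and are not replicates.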
